A study of Mus musculus with 15 samples.

Results

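Endothelial cells of white adipose tissue (WAT) were compared with the stromal cells of the same tissue in 9 RNA-seq libraries, taken from a series of 15 libraries of 5 sorted populations. The comparison used the 3 libraries titled as CD31+ endothelial cells of WAT and the 6 titled as mesenteric MSC, 3 of them IL33+ and 3 IL33-, and the 6 lung libraries were not compared. All cells came from C57BL/6 mice heterozygous for an Il33-citrine reporter, in which a fluorescent protein marks cells that express Il33, and were sorted directly from tissue digested with collagenase and DNase. Mouse age was not given in the sources used here, and no treatment was named. Each population had 3 replicates, described as coming from independent experiments. Endothelial cells had been gated as Lin- CD45- EpCAM- CD31+ cells. Mesenchymal stromal cells (WAT-MSC) had been gated as Lin- CD45- EpCAM- CD31- CD24- cells positive for PDGFRα, CD34, Sca1 and podoplanin, and were then divided by citrine. The endothelial gate held no marker of a vessel type, so arterial, capillary, venous and lymphatic cells were pooled in it. The endothelial labels name white adipose tissue without a depot, whereas the stromal titles name the mesentery, so a difference of depot cannot be told apart from a difference of cell class.

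Endothelial cells line every blood and lymphatic vessel. They are held together by VE-cadherin and claudin-5, sense the growth factors VEGF and angiopoietin through receptor tyrosine kinases, and keep their identity through ETS and SOXF transcription factors. In adipose tissue the capillary endothelium also passes fatty acids to adipocytes: lipoprotein lipase, held on the vessel wall by GPIHBP1, releases them from circulating triglyceride, and CD36 takes them up. Stromal cells lie outside the vessels, build the collagen matrix and secrete angiogenic factors.

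Levels had been deposited as RPKM (read numbers scaled by transcript length and by the mapped reads of the library) for 12698 transcripts and were summed over the transcripts of each of 10222 gene symbols. The 9 libraries held 43825859 to 60773158 alignments each. The test of each difference was limma's, fitted to log2(RPKM + 1) of the 9015 genes that reached 1 RPKM in at least 3 of the 9 libraries. A log2 difference is endothelial minus the mean of the stromal populations, followed by its standard error, and is on the log2(RPKM + 1) scale, on which changes of weakly expressed genes appear smaller than they are. A gene is called higher or lower in endothelial cells where its Benjamini-Hochberg adjusted p in this fit was below 0.05. Endothelial values are listed in the order of replicates 1, 2 and 3, and the 6 stromal values are given as their range and median.

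Endothelial replicate 1 stood apart from the other 8 libraries. In it 11.02% of the gene symbols were listed at 0, against 2.5 to 7.0% in the others. In a fit with estimated library weights it received a weight of 0.142. Endothelial replicates 2 and 3 received 3 and 0.571, and the stromal libraries 0.399 to 2.59. Over all tested genes its log2 level minus the mean of the other 2 endothelial libraries had a median of -0.59, whereas over the 491 genes called higher this median was 0.09. Correlations of log2 levels across genes ranged from 0.755 to 0.904 between endothelial libraries, from 0.819 to 0.953 between stromal libraries and from 0.6254 to 0.866 between the classes. Genes are not independent replicates, and these correlations only describe the libraries.

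The genes of the sorted proteins are a check of the gate and not a result. Pecam1, the gene of CD31 (chr11:106654217-106750628, GRCm38), was at 198, 145 and 146 RPKM in the endothelial libraries and at 0.71 to 2.99 RPKM (median 2.5) in the stromal libraries. Pdgfra was at 24.4, 28.1 and 35.7 RPKM against 53.3 to 122 RPKM (median 84.7), so it was lower in every endothelial library but far from 0. Cd24a, whose protein was excluded from the stromal gate, was at 122, 55.1 and 61.6 RPKM against 1.78 to 9.63 RPKM (median 5.07). Of the other stromal gate genes, Cd34 was at 144, 108 and 156 RPKM against 139 to 250.04 RPKM (median 178), Ly6a (Sca1) at 96.7, 289 and 476 RPKM against 131 to 522 RPKM (median 329), and Pdpn (podoplanin) at 34.4, 29.6 and 34.3 RPKM against 34.1 to 70.05 RPKM (median 40.1). These last 3 overlapped between the classes.

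**Figure D1:**
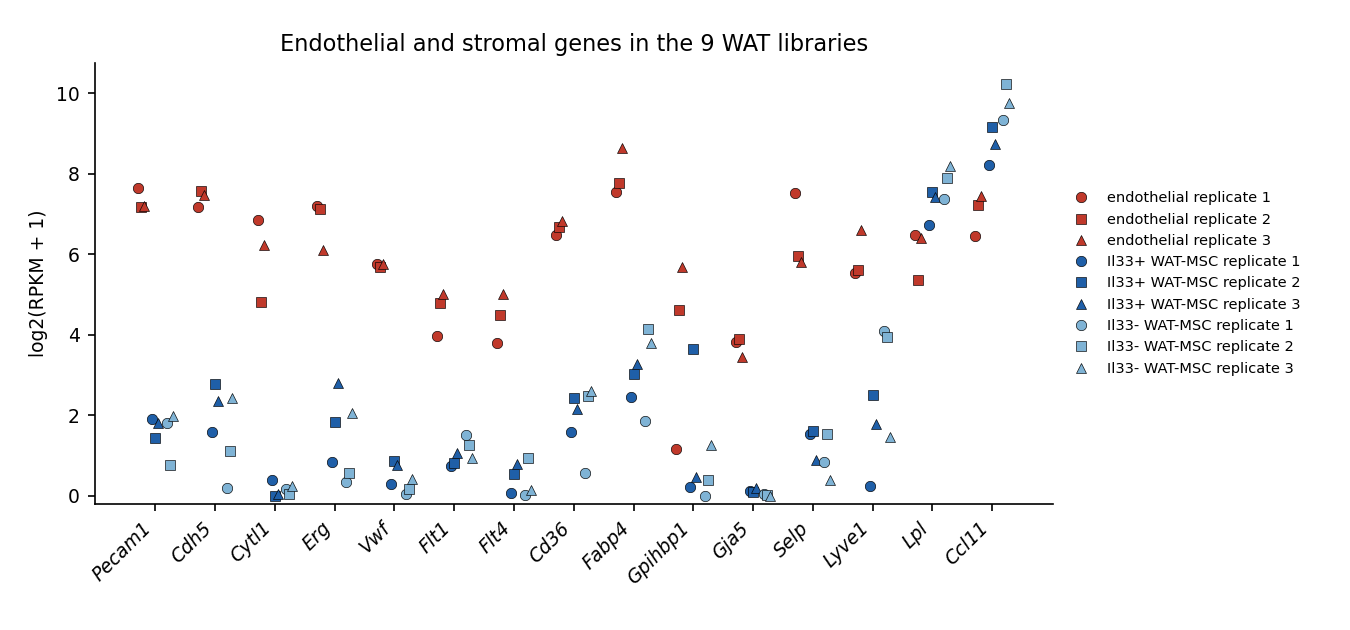
Level of 15 genes, as log2(RPKM + 1), in each of the 9 libraries (red, endothelial; dark blue, Il33+ WAT-MSC; light blue, Il33- WAT-MSC; the symbol gives the replicate). Pecam1 to Fabp4 separate the classes without overlap, Gpihbp1 is at 1.24 RPKM in endothelial replicate 1, and Lpl and Ccl11 are lower in endothelial cells.

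Of the 9015 genes tested, 788 (8.74%) were called, 491 (5.45%) higher and 297 (3.29%) lower in endothelial cells. In bulk libraries such as these, fewer cells of a type and less RNA per cell cannot be told apart. Among the called genes, 699 had endothelial libraries that did not overlap the stromal libraries. A gene below 1 RPKM in every stromal library passed the filter only where all 3 endothelial libraries reached 1 RPKM. For such genes, Cytl1, Vwf, Gata2 and Nos3 among them, the filter fixed the direction and the lack of overlap. It did so for every tested gene below whose stromal range ends under 1 RPKM. Over all 10222 listed genes, the 3 endothelial libraries were all above the 6 stromal libraries for 6.67% and all below them for 5.75%. The median log2 difference over all tested genes was -0.18, and median-ratio scaling of the libraries moved it to -0.02, so differences below are read against that shift. With Il33+ WAT-MSC alone as the reference, 277 genes were called higher and 47 lower. Library weights raised the counts to 990 higher and 1417 lower. Fits that left out 1 library kept the same 9015 genes. Without endothelial replicate 1 there were 562 higher and 210 lower, without replicate 2 there were 405 and 157, and without replicate 3 there were 460 and 692. The count of lower genes also fell to 178 and 151 without Il33+ WAT-MSC replicates 1 and 3, and to 160 and 153 without Il33- WAT-MSC replicates 2 and 3.

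**Figure D2:**
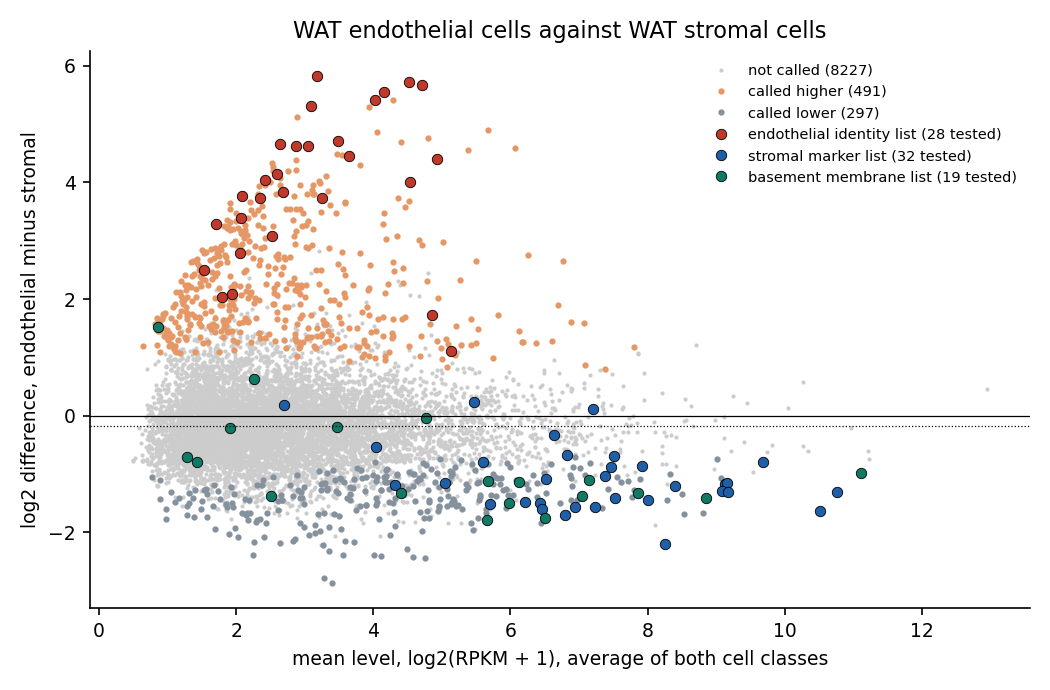
Log2 difference (endothelial minus stromal) of each of the 9015 tested genes against its mean level, as log2(RPKM + 1), in which genes called higher are orange and genes called lower are grey-blue. The 28 endothelial identity genes (red) lie above 1, the 32 stromal markers (blue) between -2.20 and 0.24, and the dotted line is the median of all tested genes (-0.18).

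Genes of endothelial identity and of endothelial junctions made up 6 of the 10 largest differences. All 28 listed were called higher, with a median log2 difference of 4.02 against -0.18 over all tested genes, and 27 had no overlap between the classes. They had been collected as endothelial genes, so their direction is a check of the label. Cdh5 (VE-cadherin, the adhesion protein of endothelial junctions; chr8:104101625-104144511) was at 144, 191 and 178 RPKM against 0.14 to 5.82 RPKM (median 3.10) in stromal cells, a log2 difference of 5.67 ± 0.44 (adjusted p = 1.92e-05). Cytl1, which encodes a small secreted protein (chr5:37735519-37739820), had the largest difference of any gene, 5.82 ± 0.42 (adjusted p = 1.29e-05). It was at 115, 27.4 and 74.3 RPKM in endothelial libraries and at 0 to 0.32 RPKM (median 0.08) in stromal libraries, so endothelial replicate 2 held the least of it and still exceeded every stromal library. Vwf (von Willebrand factor, a clotting protein stored in endothelial granules) was the most even of the list across endothelial libraries, at 53.04, 50.2 and 53.4 RPKM against 0.04 to 0.84 RPKM (median 0.285).

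Other junction and surface genes also separated the classes. Ptprb, the phosphatase that restrains the TIE2 receptor, was at 173, 103 and 86.95 RPKM against 0.48 to 2.58 RPKM (median 1.67), a difference of 5.54 ± 0.33. Cd93, a C-type lectin of the endothelial surface, was at 116, 99.3 and 93.6 RPKM against 0.15 to 2.44 RPKM (median 1.64), a difference of 5.42 ± 0.34. Its matrix ligand Mmrn2 was at 33.96, 29.1 and 27.2 RPKM against 0.08 to 0.55 RPKM (median 0.205). The tight junction gene Cldn5 had a smaller difference, 3.83 ± 0.51 (adjusted p = 0.000566), at 26.5, 14.02 and 22.1 RPKM against 0 to 4.59 RPKM (median 0.21). Barrier function is also served by S1pr1, the receptor for sphingosine 1-phosphate, which was at 36.3, 46.6 and 35.2 RPKM against 0.15 to 1.73 RPKM (median 0.58), and by the junctional immunoglobulin Esam, at 37.6, 26.3 and 26.1 RPKM against 0 to 6.23 RPKM (median 0.855). Plvap, which forms the diaphragms of endothelial fenestrae, was at 63.1, 40.1 and 63.5 RPKM against 0.43 to 4.29 RPKM (median 1.25), a difference of 4.45 ± 0.37. Emcn, a sialomucin of capillaries and veins, was at 51.5, 46.98 and 63.8 RPKM against 0.09 to 3.25 RPKM (median 1.15), and the guidance receptor Robo4 at 12.1, 20.9 and 31.01 RPKM against 0.02 to 0.51 RPKM (median 0.355).

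The smallest differences of the list belonged to Tspan18 and Eng. Tspan18, a tetraspanin, was at 49.5, 27.7 and 51.3 RPKM in endothelial cells, at a mean of 46.3 ± 10.5 RPKM in the Il33+ WAT-MSC (± SD, n = 3 libraries, as in all such values below) and of 7.4 ± 1.68 RPKM in the Il33- WAT-MSC. Its log2 difference was 1.11 against both stromal populations together and -0.14 against the Il33+ population alone. Podxl (podocalyxin, an anti-adhesive sialomucin) was also unequal in stroma, at 10.7 ± 6.58 RPKM in Il33+ but at 1.22 ± 0.6252 RPKM in Il33- WAT-MSC, but stayed below the endothelial values of 58.8, 84.02 and 83.8 RPKM. Without endothelial replicate 1, 27 of the 28 genes were called higher and none lower, and with median-ratio scaling all 28 were. The call of Tspan18 was lost in 6 of the 9 fits without 1 library (adjusted p = 0.0507 to 0.0696), and held without endothelial replicate 2, Il33+ WAT-MSC replicate 2 or Il33- WAT-MSC replicate 2.

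Promoters of 4 endothelial genes are shown because Erg, an ETS factor, had the largest difference of the transcription factors below, and ETS factors bind a GGAA core. These 4 genes were chosen after their values were seen. Each window runs from 250 bases before to 50 bases after the transcription start in RefSeq (build GRCm38.p6) and is written on the strand of the gene, with matches to CCGGAA or CAGGAA on either strand in capitals. Cytl1 lies at chr5:37735269-37735568 on the plus strand and Emcn at chr3:137340828-137341127 on the plus strand. Kdr lies at chr5:75978406-75978705 on the minus strand and Tie1 at chr4:118489800-118490099 on the minus strand.
Cytl1: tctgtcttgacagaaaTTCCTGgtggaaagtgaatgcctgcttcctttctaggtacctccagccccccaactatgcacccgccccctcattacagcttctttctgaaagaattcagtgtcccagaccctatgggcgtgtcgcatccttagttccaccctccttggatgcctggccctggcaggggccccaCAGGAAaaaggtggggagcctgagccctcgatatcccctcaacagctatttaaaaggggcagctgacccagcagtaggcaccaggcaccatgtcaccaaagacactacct
Emcn: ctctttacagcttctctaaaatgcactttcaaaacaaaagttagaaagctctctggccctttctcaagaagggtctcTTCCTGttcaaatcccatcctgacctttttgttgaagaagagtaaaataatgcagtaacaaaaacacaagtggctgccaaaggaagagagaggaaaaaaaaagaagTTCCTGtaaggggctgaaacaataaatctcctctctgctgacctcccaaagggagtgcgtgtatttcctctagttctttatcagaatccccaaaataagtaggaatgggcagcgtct
Kdr: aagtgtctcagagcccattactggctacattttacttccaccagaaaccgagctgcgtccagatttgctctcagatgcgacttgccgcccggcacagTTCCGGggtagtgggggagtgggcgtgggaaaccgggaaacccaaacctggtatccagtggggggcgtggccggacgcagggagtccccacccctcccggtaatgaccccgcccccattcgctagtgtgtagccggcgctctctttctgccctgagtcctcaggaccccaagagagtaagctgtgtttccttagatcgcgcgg
Tie1: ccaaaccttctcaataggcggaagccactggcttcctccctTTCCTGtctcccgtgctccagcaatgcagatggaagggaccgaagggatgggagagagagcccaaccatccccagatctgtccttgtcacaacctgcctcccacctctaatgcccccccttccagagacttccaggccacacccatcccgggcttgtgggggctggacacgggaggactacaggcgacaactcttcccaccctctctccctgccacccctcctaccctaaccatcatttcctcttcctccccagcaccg
Cytl1 and Emcn each held 2 matches and Kdr and Tie1 held 1. The RefSeq promoter table had entries for 344 of the 491 genes called higher, with 461 promoters in all. Of these, 39.7% held at least 1 of the motifs, against 40.2% of the 264 promoters of genes called lower, 46.8% of the 8067 promoters of tested genes that were not called and 41.4% of all 32851 promoters. CCGGAA alone was in 11.9% of the promoters of genes called higher and in 14.9% of all promoters, and in 28.1% of those of tested genes that were not called. CAGGAA was in 31.7, 30.6 and 25.3% of them. The motifs share GGAA and differ in the base before it, so a GGAA counts for at most 1 of them. The share with CCGGAA was thus lower, and that with CAGGAA higher, in genes called higher than in genes not called, and genes called lower had 14.8 and 28.4%. These shares were not tested, and a match is a run of letters and not a bound site.

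Receptors for angiogenic factors made up most of the calls of their pathway. Of 33 receptors, ligands and guidance genes, 32 were measured, 13 were called higher and 2 lower, with a median log2 difference of 0.96. Flt1 (VEGF receptor 1) was at 14.6, 26.7 and 31.5 RPKM against 0.68 to 1.84 RPKM (median 1.005) in stromal cells, a difference of 3.54 ± 0.33 (adjusted p = 4.75e-05). Kdr (VEGF receptor 2) was at 11.9, 23.7 and 25.3 RPKM against 0.01 to 7.55 RPKM (median 1), a difference of 3.26 ± 0.57 (adjusted p = 0.00345). Flt4 (VEGF receptor 3, which binds lymphatic growth factors) was at 12.9, 21.8 and 31.1 RPKM against 0.02 to 0.93 RPKM (median 0.285), a difference of 4.01 ± 0.38. The levels of these 3 receptors lay between 11.9 and 31.5 RPKM in endothelial cells, and each had its lowest endothelial value in replicate 1. Nrp2, a co-receptor of VEGF-C, was at 19.3, 19.1 and 22.5 RPKM against 1.34 to 6.58 RPKM (median 2.79), a difference of 2.49 ± 0.29, while its paralogue Nrp1 was not called (19.9, 25.8 and 26.4 RPKM in endothelial cells).

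The angiopoietin receptors differed from each other. Tie1, an orphan partner of TIE2, was at 46.05, 16.1 and 15.7 RPKM against 0.2 to 0.89 RPKM (median 0.265), a difference of 4.14 ± 0.39. Tek, which encodes TIE2 itself, was at 31.4, 19.2 and 21.9 RPKM against 8.52 to 14.9 RPKM (median 11.9), a difference of 0.96 ± 0.26 (adjusted p = 0.0415). That call depended on the transcripts. Of the 3 listed, the transcript with the highest mean was at 2.08, 6.91 and 5.97 RPKM in endothelial cells and at 3.97 to 9.73 RPKM in stromal cells, and the difference of Tek from it alone was -0.26. The call of Tek was lost in 8 of the 9 fits without 1 library (adjusted p = 0.0525 to 0.102), and held without Il33+ WAT-MSC replicate 2. Among peptide receptors, Aplnr, which binds apelin, was at 6.61, 23.9 and 19.8 RPKM against 0.03 to 1.69 RPKM (median 0.38) and had its lowest endothelial value in replicate 1. Calcrl, the receptor of adrenomedullin, was at 78.8, 20.8 and 27.8 RPKM against 4.18 to 10.4 RPKM (median 7.005) and had its highest there, with a difference of 2.26 ± 0.41. Plxnd1, a semaphorin receptor, was called higher (1.64 ± 0.33) and was at 1.27 ± 0.640 RPKM in Il33+ and at 9.27 ± 3.24 RPKM in Il33- WAT-MSC.

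Ligands were called in both directions. Vegfd was lower in endothelial cells, at 11.98, 15.2 and 21.1 RPKM against 19.5 to 40.7 RPKM (median 35.7), a difference of -1.002 ± 0.28 (adjusted p = 0.0478). Adm (adrenomedullin) was lower too, at 14.1, 12.97 and 22.6 RPKM against 25.8 to 48.5 RPKM (median 33.1), a difference of -1.07 ± 0.29 (adjusted p = 0.0391), the opposite direction to its receptor Calcrl. The call of Vegfd was lost in 7 of the 9 fits without 1 library (adjusted p = 0.0619 to 0.131), and held without endothelial replicate 3 or Il33+ WAT-MSC replicate 2. The call of Adm was lost in 6 of the 9 fits without 1 library (adjusted p = 0.0644 to 0.145), and held without endothelial replicate 3, Il33+ WAT-MSC replicate 1 or Il33- WAT-MSC replicate 3. Vegfa was at 4.99, 12.4 and 17.4 RPKM against 13.1 to 33.02 RPKM (median 29.2) and did not pass the test (-1.15 ± 0.35, adjusted p = 0.065), which it did with the sequencing lane as a factor (adjusted p = 0.0405). Pdgfb, the ligand by which endothelium recruits pericytes, was higher, at 3.9, 3.81 and 4.7 RPKM against 0 to 0.12 RPKM (median 0.005), a difference of 2.32 ± 0.27 (adjusted p = 0.000204). The filter fixed the direction of Pdgfb, which passed only through the endothelial libraries. Angpt2 (4.11, 1.16 and 1.59 RPKM) and Esm1 (0.85, 4.6 and 11.5 RPKM), genes of sprouting endothelium, were not called.

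Transcription factors of the endothelial lineage were led by Erg. Of 31 factors, 29 were measured and 17 were called higher. Of the 29, 18 had no overlap between the classes, all of them above stroma, against 6.67% of all listed genes. None of the factors was called lower by limma, and 1 was lower at an unadjusted p below 0.05. Erg, the ETS factor that maintains endothelial identity, was at 147, 138 and 68.2 RPKM against 0.27 to 5.96 RPKM (median 1.68), a difference of 5.40 ± 0.49 (adjusted p = 4.07e-05). The related Fli1 was at 31.2, 24.7 and 18.8 RPKM against 0.8 to 3.08 RPKM (median 1.34), a difference of 3.33 ± 0.31, and Ets1 at 10.7, 26.6 and 21.6 RPKM against 2.3 to 7.8 RPKM (median 3.56), a difference of 1.99 ± 0.37. Among the SOXF factors of vessel development, Sox18 was at 18.4, 26.7 and 28.6 RPKM against 0 to 0.59 RPKM (median 0.35) and Sox7 at 52.4, 34.2 and 34.4 RPKM against 0.83 to 1.92 RPKM (median 1.34), with differences of 4.27 ± 0.32 and 4.11 ± 0.30. Sox17, of the same family, was at 4.15, 0.61 and 5.68 RPKM against 0 to 0.07 RPKM (median 0) and did not pass the filter on low values.

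Epas1 (HIF-2α, an oxygen-regulated factor) had the highest endothelial level of the 17 factors called, at 237, 182 and 161 RPKM against 13.8 to 43.7 RPKM (median 28.4), a difference of 2.76 ± 0.27. The zinc finger factor Gata2 was at 4.82, 4.81 and 7 RPKM against 0 to 0.08 RPKM (median 0.025) and the repressor Bcl6b at 10.98, 15.9 and 10.2 RPKM against 0.01 to 0.64 RPKM (median 0.145). Tal1, a haematopoietic and endothelial factor, was the most uneven of all genes called higher, at 37.7, 3.25 and 4.94 RPKM in endothelial libraries against 0 to 1.25 RPKM (median 0.025) in stromal libraries. Meox2, a homeobox factor of capillary endothelium, was at 32.2, 13.1 and 26.1 RPKM, and its stromal level was 14.3 ± 3.74 RPKM in Il33+ but 1.92 ± 1.33 RPKM in Il33- WAT-MSC. Foxo1, which restrains endothelial growth, was at 55.1, 29.7 and 24.9 RPKM against 13.03 to 20.1 RPKM (median 16.4), a difference of 1.03 ± 0.28. The call of Foxo1 was lost in 8 of the 9 fits without 1 library (adjusted p = 0.075 to 0.11), and held without endothelial replicate 3. The shear-stress factors Klf2 and Klf4 overlapped between the classes. Klf2 was at 34.9, 30.3 and 64.97 RPKM against 30.2 to 72.5 RPKM (median 48.7) and Klf4 at 135, 257 and 338 RPKM against 259.8 to 423 RPKM (median 368), with 95% intervals of the difference from -0.82 to 0.34 and from -1.29 to 0.02.

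Several genes of fatty acid handling, of caveolae and of other capillary functions were higher in endothelial cells. Of 24, 22 were measured, 12 were called higher, 1 lower and 9 neither, with a median log2 difference of 2.69. The list also held capillary genes outside fatty acid uptake, such as Aqp1, Timp4 and Car4. Acsl1, a fatty acid gene of the list, was at 0.65, 1.75 and 2.66 RPKM against 0.16 to 2.35 RPKM (median 1.42). It was not called (adjusted p = 0.808). Fabp4, the fatty acid binding protein of capillaries and adipocytes, was at 187, 217 and 397 RPKM against 2.64 to 16.7 RPKM (median 7.88), a difference of 4.89 ± 0.46 (adjusted p = 4.75e-05). Cd36, the fatty acid translocase, was at 88.8, 102 and 113 RPKM against 0.48 to 5.1 RPKM (median 3.94), a difference of 4.69 ± 0.42. The water channel Aqp1 was at 184, 130.5 and 104 RPKM against 1.43 to 7.37 RPKM (median 4.31) and the glycerol channel Aqp7 at 13.4, 42.4 and 45.05 RPKM against 0.22 to 2.94 RPKM (median 0.705), with differences of 4.76 ± 0.30 and 3.95 ± 0.50. Rbp7, a retinol binding protein of the same family as Fabp4, was at 4.63, 9.92 and 21.8 RPKM against 0 to 2.39 RPKM (median 0.05), lowest in endothelial replicate 1. Fabp5 was at 21.2, 13.04 and 14.02 RPKM against 0.4 to 3.5 RPKM (median 1.7), highest in that library. Timp4, a protease inhibitor of vessels and fat, was at 12.9, 1.41 and 11.1 RPKM against 0 to 0.06 RPKM (median 0.01), a difference of 2.86 ± 0.49.

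Of lipoprotein lipase and its anchor, only the enzyme was called in the main fit. Lpl was called lower in endothelial cells, at 87.8, 39.9 and 84.5 RPKM against 106 to 290.2 RPKM (median 178), a difference of -1.44 ± 0.31 (adjusted p = 0.0129). The call of Lpl was lost without endothelial replicate 2 (adjusted p = 0.0702). Gpihbp1, the endothelial protein that holds the enzyme on the capillary wall, was at 1.24, 23.4 and 50.5 RPKM against 0 to 11.5 RPKM (median 0.35). It did not pass the test in the main fit (2.82 ± 0.96, adjusted p = 0.101), but did with the replicate number as a block (adjusted p = 0.0315). Without endothelial replicate 1 it was called higher, with a difference of 4.15 (adjusted p = 0.00595). Cav1, the scaffold of caveolae, was at 285, 243 and 232 RPKM against 15.7 to 88.8 RPKM (median 40.5), a difference of 2.65 ± 0.41. Cav2 was at 19.3, 12.8 and 25.3 RPKM against 0.92 to 2.79 RPKM (median 1.52) and Sdpr, which encodes cavin-2, at 55.5, 57.97 and 67.2 RPKM against 9.96 to 12.1 RPKM (median 11.9), so these caveolar genes were also detected in every stromal library. Car4, a carbonic anhydrase of capillary walls, was at 4.16, 15.1 and 13.9 RPKM against 0.02 to 2.37 RPKM (median 0.385), with its lowest endothelial value in replicate 1. Of 17 adipocyte markers, 8 were measured, 3 were called higher, and they summed to 82.9, 116 and 67.0 RPKM against 29.4 to 54.6 RPKM. Adipoq and Plin1 were among the 9 adipocyte markers with no listed value. Pparg, which capillary endothelium shares with adipocytes, was at 1.67, 2.51 and 2.63 RPKM against 0.04 to 3.4 RPKM (median 0.605). The part of adipocyte RNA in these results was not tested.

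Arterial genes were present beside the capillary genes. Of 18, 17 were measured, 13 passed the filter and 8 were called higher. Of the 17, 9 were above stroma without overlap, against 6.67% of all listed genes. None of the arterial genes was lower, either by limma or at an unadjusted p below 0.05. Gja5, the connexin of arterial endothelium, was at 13.2, 13.9 and 10.03 RPKM against 0 to 0.15 RPKM (median 0.05), a difference of 3.65 ± 0.29 (adjusted p = 2.2e-05). The arterial ligand Efnb2 was at 18.9, 17.7 and 21.9 RPKM against 0.2 to 2.1 RPKM (median 1.69), a difference of 3.08 ± 0.33. Its venous receptor Ephb4 was at 23.1, 9.95 and 13.8 RPKM against 1.13 to 2.79 RPKM (median 2.29), a difference of 2.36 ± 0.34, so both sides of this pair were higher in the pooled vessels. Bmx, a kinase of arterial endothelium, was at 21.2, 4.55 and 3.34 RPKM against 0.01 to 0.5 RPKM (median 0.015), highest in endothelial replicate 1. The filter fixed the direction and lack of overlap of Gja5 and Bmx, which passed only through the endothelial libraries. Tm4sf1 was at 161, 47.7 and 75.6 RPKM against 5.88 to 11.98 RPKM (median 10.9), and Edn1, the vasoconstrictor endothelin-1, at 12.2, 9.23 and 17.9 RPKM against 0.31 to 6.99 RPKM (median 1.55), with differences of 2.99 ± 0.37 and 2.15 ± 0.41.

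In the Notch pathway, which sets arterial fate, 3 of 16 measured genes were called higher. They were the ligand Dll1 (2.12 ± 0.30), the target Hey1 (2.23 ± 0.38) and the receptor Notch3 (1.56 ± 0.43), which is also a pericyte gene. The call of Notch3 was lost in 8 of the 9 fits without 1 library (adjusted p = 0.0564 to 0.162), and held without endothelial replicate 1. None was called lower by limma, and 2 were lower at an unadjusted p below 0.05. The arterial ligand Dll4 was at 0.09, 6.09 and 5.46 RPKM and did not pass the filter. The endothelial receptor Notch4 was at 1.14, 4.8 and 3.72 RPKM against 0.2 to 2.98 RPKM (median 0.505) and was not called (adjusted p = 0.174). Both were lowest in endothelial replicate 1.

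Cxcl12, the chemokine that binds CXCR4, was called higher as a sum of its transcripts, at 36.4, 42.6 and 77.1 RPKM against 11.5 to 27.1 RPKM (median 20.1), a difference of 1.31 ± 0.30 (adjusted p = 0.0175). Its 3 transcripts on chromosome 6 did not move together. The alpha transcript (chr6:117168535-117175069, 3 exons, 89 codons) was at 3.25, 2.89 and 16.45 RPKM in endothelial cells and at 10.9 to 24.2 RPKM (median 17.8) in stromal cells. The beta transcript (chr6:117168574-117181366, 4 exons, 93 codons) was at 33.0, 28.3 and 49.8 RPKM against 0.59 to 2.67 RPKM (median 1.85). The gamma transcript (chr6:117168577-117181367, 4 exons, 119 codons) was at 0.16, 11.5 and 10.8 RPKM against 0.02 to 0.91 RPKM (median 0.315). Beta was the main form in all 3 endothelial libraries and alpha the main form in all 6 stromal libraries. With the most abundant transcript in place of the sum, the log2 difference of Cxcl12 was -1.47. The call of Cxcl12 was lost without endothelial replicate 3 (adjusted p = 0.0503). Transcripts of a gene share reads, and how the authors divided them is not given in the sources used here.

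Venous and leukocyte adhesion genes were led by P-selectin. Of 24, 22 were measured and 11 were called higher. None was called lower by limma, and 2 were lower at an unadjusted p below 0.05. Selp (P-selectin, which captures rolling leukocytes) was at 184, 61.1 and 55.1 RPKM against 0.32 to 2.08 RPKM (median 1.37), a difference of 5.29 ± 0.43 (adjusted p = 2.39e-05). Sele (E-selectin) was at 101, 27.5 and 19.6 RPKM against 2.21 to 13.2 RPKM (median 5.95), a difference of 2.48 ± 0.52. Vcam1, the ligand of the integrin VLA-4, was at 203, 67.2 and 83.5 RPKM against 10.6 to 22.7 RPKM (median 16.5), a difference of 2.66 ± 0.33. All 3 had their highest value in endothelial replicate 1, whereas the levels of endothelial replicates 2 and 3 were close to each other.

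Other adhesion genes followed. Lrg1, a venous glycoprotein, was at 30.03, 13.7 and 32.8 RPKM against 0 to 0.75 RPKM (median 0.15), a difference of 4.34 ± 0.36, and F11r (JAM-A) at 68.7, 39.4 and 40.1 RPKM against 1.49 to 11.2 RPKM (median 3.14), a difference of 3.29 ± 0.36. Cx3cl1 (fractalkine, a membrane-bound chemokine) was at 14.1, 2.85 and 7.46 RPKM against 0.01 to 1.08 RPKM (median 0.505), a difference of 2.39 ± 0.42. Icam2, a ligand of LFA-1, was higher (2.78 ± 0.33), whereas Icam1, another ligand of LFA-1, was at 91.6, 66.8 and 83.1 RPKM against 32.2 to 72.9 RPKM (median 63.9) and its 95% interval ran from -0.12 to 1.20. Ackr1, the atypical chemokine receptor of venules, was at 35.6, 38.6 and 32.7 RPKM in endothelial cells, at 42.2 ± 9.21 RPKM in Il33+ and at 10.5 ± 5.15 RPKM in Il33- WAT-MSC, and was not called (adjusted p = 0.157). Cd200, an inhibitory ligand for myeloid cells, was at 46.3, 45.3 and 73.4 RPKM in endothelial cells, at 19.3 ± 1.64 RPKM in Il33+ and at 1.53 ± 1.33 RPKM in Il33- WAT-MSC, and was called higher (3.02 ± 0.37).

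Lymphatic endothelium was represented by Lyve1, Mmrn1 and Prox1. Of 19 lymphatic genes, 16 were measured and 8 were called higher. None was called lower by limma, and 1 was lower at an unadjusted p below 0.05. Lyve1, the hyaluronan receptor of lymphatic capillaries, was at 45.5, 47.99 and 95.8 RPKM against 0.19 to 16.2 RPKM (median 3.57), a difference of 3.57 ± 0.62 (adjusted p = 0.00323). Mmrn1 (multimerin-1) was at 30.7, 23.5 and 42.3 RPKM against 0.09 to 1.34 RPKM (median 0.43), a difference of 4.38 ± 0.38. Prox1, the factor that specifies lymphatic endothelium, was at 4.8, 19.5 and 23.03 RPKM against 0.22 to 2.18 RPKM (median 1.04), a difference of 2.78 ± 0.50. Ccl21a, the chemokine that guides dendritic cells into lymphatics, was at 46.4, 23.8 and 97.8 RPKM against 0.32 to 2.84 RPKM (median 1.36), a difference of 4.46 ± 0.45. Its near-identical copy Ccl21b was at 6.56, 9.3 and 63.3 RPKM and another copy, Gm1987, at 46.9, 21.2 and 93.9 RPKM, so the split of reads among them is uncertain. The matrix protein gene Reln was at 6.57, 3.99 and 6.62 RPKM against 0 to 0.24 RPKM (median 0.02), the scavenger receptor Stab1 at 4.96, 4.88 and 6.76 RPKM against 0 to 0.36 RPKM (median 0.105), and the peptide gene Nts at 1.91, 12.1 and 11.3 RPKM against 0 to 0.69 RPKM (median 0.03). The filter fixed the direction of Reln, Stab1 and Nts, which passed only through the endothelial libraries. Pdpn, also on the list, was not called, and its difference ran from -0.63 to -0.20 over 22 alternative fits.

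The endothelial libraries differed among themselves, in these vessel genes as over all tested genes. Of the 22 venous and adhesion genes, 15 were higher in replicate 1 than in the mean of replicates 2 and 3, with a median difference of 0.23 on the log2(RPKM + 1) scale. Of the 22 fatty acid and caveolar genes 7 were higher in it (median -0.53), of the 16 Notch genes 5 (median -0.80) and of the 16 lymphatic genes 4 (median -0.16). Of all 9015 tested genes 2695 were higher in it (median -0.59). The shares of the fatty acid and Notch genes were thus near that of all tested genes. Members of the arterial list went both ways. Hey2, a Notch target, was at 11.6, 0.7 and 0.38 RPKM, whereas the connexin Gja4 was at 0.04, 4.15 and 8.16 RPKM. These values describe 3 libraries and were not tested.

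**Figure D3:**
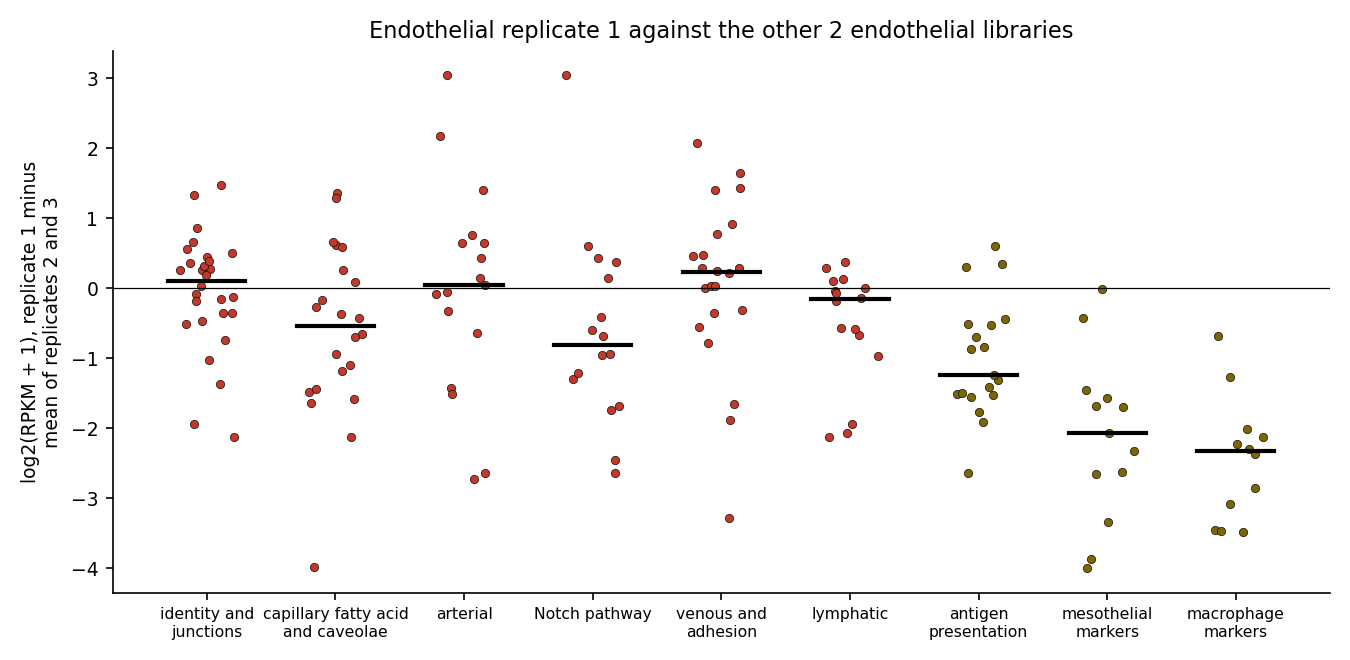
Level in endothelial replicate 1 minus the mean of replicates 2 and 3, on the log2(RPKM + 1) scale, for each listed gene (points) of 9 gene lists, with the median as a black bar. The medians of venous and identity genes are 0.23 and 0.11, those of fatty acid and Notch genes are -0.53 and -0.80, and those of mesothelial and macrophage markers are -2.07 and -2.33. The median of all tested genes, not drawn, is -0.59.

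Of 24 genes of vascular tone, 22 were measured, 8 were called higher and 1 lower, with a median of 0.56. Nos3, endothelial nitric oxide synthase, was at 3.23, 4.73 and 5.65 RPKM against 0 to 0.06 RPKM (median 0.015), a difference of 2.41 ± 0.28 (adjusted p = 0.000223). Ddah1, which removes inhibitors of that enzyme, was at 7.51, 5.34 and 7.36 RPKM against 0.03 to 0.4 RPKM (median 0.21), a difference of 2.68 ± 0.30. Gucy1a3, a subunit of the nitric oxide receptor known from mural cells, was at 59.9, 22.8 and 23.01 RPKM against 0.33 to 4.02 RPKM (median 1.93), a difference of 3.62 ± 0.40. Ednrb, the endothelin B receptor, was at 6.21, 8.29 and 4.05 RPKM against 0 to 2.17 RPKM (median 0.1), and Ptgs1, which makes prostaglandin H2, at 12.6, 20.5 and 26.1 RPKM against 1.54 to 16.5 RPKM (median 8.79). Ptges, a prostaglandin E synthase, was lower, at 2.64, 4.33 and 14.7 RPKM against 9.85 to 30.4 RPKM (median 19.3), a difference of -1.62 ± 0.43 (adjusted p = 0.0371). Without endothelial replicate 1, 7 were called higher and none lower. The call of Ptges was lost in 7 of the 9 fits without 1 library (adjusted p = 0.0504 to 0.131), and held without endothelial replicate 3 or Il33+ WAT-MSC replicate 2. The call of Ptgs1 was lost in 6 of the 9 fits without 1 library (adjusted p = 0.0527 to 0.108), and held without endothelial replicate 1 or Il33- WAT-MSC replicate 1 or 2.

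In haemostasis and fibrinolysis 5 of 20 measured genes were called higher and 3 lower, and the median log2 difference was -0.19, close to that of all tested genes. Besides Vwf and Selp, Procr, the protein C receptor, was higher, at 129, 104 and 102 RPKM against 20.7 to 55.9 RPKM (median 46.4), a difference of 1.46 ± 0.27. Entpd1 (CD39, which degrades extracellular ATP) and Plaur, the urokinase receptor, were higher by 2.20 ± 0.34 and 1.57 ± 0.32. Plau, the urokinase that binds it, was lower, at 8.72, 11.3 and 6.61 RPKM against 10.3 to 80.5 RPKM (median 35.8), a difference of -1.65 ± 0.27 (adjusted p = 0.00254). Over 22 alternative fits the difference of Plau ran from -2.71 to -0.59, and its call was lost in 2 (adjusted p up to 0.472). The tissue factor inhibitor Tfpi (-0.93 ± 0.24) and the protease inhibitor Serpine2 (-1.07 ± 0.28) were also lower. Without endothelial replicate 1, 5 were called higher and 1 lower. The call of Tfpi was lost in 7 of the 9 fits without 1 library (adjusted p = 0.054 to 0.0884), and held without endothelial replicate 2 or Il33- WAT-MSC replicate 1. The call of Serpine2 was lost in 7 of the 9 fits without 1 library (adjusted p = 0.0533 to 0.0994), and held without endothelial replicate 3 or Il33+ WAT-MSC replicate 1. The call of Plaur was lost without endothelial replicate 2 (adjusted p = 0.0603). Thbd (thrombomodulin), an anticoagulant receptor known from endothelium, was high in both classes, at 221, 287 and 281 RPKM against 173 to 495 RPKM (median 383), with a 95% interval from -0.85 to 0.29.

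Of 20 measured BMP and TGF-β genes, 2 were called higher and 3 lower. Eng (endoglin, a co-receptor of BMP9) was at 46.5, 48.1 and 57.9 RPKM against 9.19 to 20.8 RPKM (median 15.2), a difference of 1.72 ± 0.27 (adjusted p = 0.00185). The ligand Bmp6 was at 5.91, 18.99 and 15.7 RPKM against 1.48 to 5.04 RPKM (median 2.97), a difference of 1.73 ± 0.36. The receptor Bmpr1a (-1.21 ± 0.21), the BMP-binding Bmper (-1.84 ± 0.50) and Ltbp1, which holds latent TGF-β in the matrix (-1.76 ± 0.32), were lower. The call of Bmper was lost in 7 of the 9 fits without 1 library (adjusted p = 0.0672 to 0.127), and held without endothelial replicate 3 or Il33- WAT-MSC replicate 1. The call of Bmp6 was lost without endothelial replicate 2 (adjusted p = 0.0717). Acvrl1 (ALK1), the receptor that works with endoglin, overlapped between the classes, at 9.52, 9.89 and 12.5 RPKM against 7.15 to 12.2 RPKM (median 9.42).

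Among intracellular signalling genes of endothelial junctions and lumens, 16 of 23 measured genes were called higher, with a median of 2.28. None was called lower by limma, and 1 was lower at an unadjusted p below 0.05. Arhgef15, an endothelial exchange factor, was at 9.26, 11.8 and 14.8 RPKM against 0.02 to 0.23 RPKM (median 0.08), a difference of 3.54 ± 0.30 (adjusted p = 2.76e-05). Rasgrp3, an exchange factor for Ras and Rap, was at 19.1, 26.4 and 29.7 RPKM against 0.44 to 2.44 RPKM (median 0.715), a difference of 3.76 ± 0.34. Fgd5, a gene of vascular development, was at 35.97, 22.6 and 21.5 RPKM against 2.37 to 6.02 RPKM (median 3.96), a difference of 2.41 ± 0.32. Rasip1, needed for vessel lumens, was at 2.22, 14.1 and 13.3 RPKM against 0.02 to 0.52 RPKM (median 0.105), with its lowest endothelial value in replicate 1. Heg1, a junctional receptor, was high in both classes, at 326, 384 and 348 RPKM against 276 to 501 RPKM (median 411), and was not called, whereas Ccm2l of the same complex was (2.80 ± 0.31). Arhgef15, Rasip1 and Ccm2l were below 1 RPKM in every stromal library, so the filter fixed their direction.

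Basement membrane genes were called lower more often than higher in endothelial cells. Of 24, 20 were measured and 19 tested, and 9 were called lower, 1 higher and 9 neither, with a median of -1.11. Lama2, the laminin chain of stromal and muscle basement membranes, was at 19.7, 22.9 and 36.5 RPKM against 70.6 to 125 RPKM (median 83.6), a difference of -1.78 ± 0.23 (adjusted p = 0.000486). Col15a1 was at 37.3, 36.9 and 65.7 RPKM against 79.6 to 264 RPKM (median 177), a difference of -1.76 ± 0.24. Nid1, which links laminin to collagen IV, was at 259.99, 272 and 314 RPKM against 601 to 855 RPKM (median 772), a difference of -1.42 ± 0.22. The collagen IV chain Col4a1 was at 41.2, 82.8 and 110.1 RPKM in endothelial cells, at 109 ± 8.56 RPKM in Il33+ and at 333 ± 58.7 RPKM in Il33- WAT-MSC, a difference of -1.38 ± 0.29 from the mean of the stromal populations. Over 22 alternative fits the difference of Col4a1 ran from -2.18 to -0.59, and its call was lost in 2 (adjusted p up to 0.482). That of Col15a1 ran from -2.43 to -1.09, and its call was lost in 1 (adjusted p = 0.12). Lama4, the laminin chain of vessel walls, was also lower (-1.11 ± 0.24). The call of Lama4 was lost without endothelial replicate 2 (adjusted p = 0.0537). The gene called higher was Lama3, at 1.05, 2.72 and 2.67 RPKM against 0 to 0.17 RPKM (median 0.04). The filter fixed the direction of Lama3, which passed only through the endothelial libraries. Lama5, an endothelial laminin chain, was at 0.81, 2.19 and 2.64 RPKM against 0.02 to 0.18 RPKM (median 0.1) and did not pass the filter. All 20 genes were lower in endothelial replicate 1 than in the mean of the other 2, with a median of -0.71. Of all 9015 tested genes 6318 were lower in it, with a median of -0.59.

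The class II genes Cd74, H2-Ab1 and H2-Eb1 and the class I genes H2-Q6 and H2-Q7 were the antigen presentation genes called higher. Of 21, 19 were measured and 5 were called higher, and 9 were called without endothelial replicate 1. None was lower, either by limma or at an unadjusted p below 0.05. Cd74, the invariant chain of class II, was at 272, 264 and 186 RPKM against 0.59 to 45.4 RPKM (median 10.5), a difference of 4.59 ± 0.90 (adjusted p = 0.00725). H2-Ab1 was at 30.2, 67.1 and 36.4 RPKM against 0.18 to 14.6 RPKM (median 5.50), a difference of 3.04 ± 0.71, and H2-Eb1 at 6.61, 17.1 and 9.67 RPKM against 0.11 to 3.46 RPKM (median 1.37), a difference of 2.42 ± 0.52. The call of H2-Ab1 was lost without endothelial replicate 2 (adjusted p = 0.0931). The call of H2-Eb1 was lost without endothelial replicate 2 (adjusted p = 0.0721). H2-Aa, the partner chain of H2-Ab1, was at 17.4, 91.4 and 30.5 RPKM against 1.63 to 24.4 RPKM (median 6.92) and overlapped between the classes. It was not called in the main fit (adjusted p = 0.082), but was with the replicate number as a block (adjusted p = 0.00163). H2-DMa, which helps load class II, was at 0.3, 2.98 and 2.43 RPKM against 0 to 1.41 RPKM (median 0.245) and was not called (adjusted p = 0.197), and its partner H2-DMb1, at 0, 1.77 and 1.87 RPKM, was not tested. Macrophage and dendritic cell markers, which mark cells that express class II, were uneven in the same libraries. Their 12 measured genes summed to 15.02, 281 and 78.5 RPKM in the endothelial libraries and to 11.1 to 65.8 RPKM in the stromal libraries. C1qc was at 0, 48.2 and 1.48 RPKM, Laptm5 at 0.01, 19.96 and 5.02 RPKM and Tyrobp at 0, 7.05 and 2.32 RPKM. Among endothelial libraries the macrophage sum, H2-Ab1, H2-Eb1, H2-Aa and H2-DMa were all lowest in replicate 1 and highest in replicate 2, whereas Cd74 was highest in replicate 1. The part of macrophage and dendritic cell RNA in these results was not tested. The class I gene H2-K1 was at 105, 221 and 309 RPKM against 74.5 to 161 RPKM (median 118). It was not called in the main fit, but was with the replicate number as a block (adjusted p = 0.0347). For H2-Q6 and H2-Q7 near-identical copies share reads, so their values are uncertain.

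The 10 largest falls among called genes without overlap were headed by Peg3os, a non-coding transcript antisense to Peg3, at 1.46, 7.31 and 0.49 RPKM against 11.9 to 36.2 RPKM (median 19.8), a difference of -2.79 ± 0.52. Without strand its reads cannot be told apart from those of its partner. Lrrc17, a secreted leucine-rich repeat protein, was at 1.49, 11.96 and 24.8 RPKM against 31.2 to 71.5 RPKM (median 52.01), a difference of -2.44 ± 0.56. The phospholipase Pla1a was at 2.9, 13.4 and 12.9 RPKM against 26.6 to 78.1 RPKM (median 49.1) and Srpx at 1.07, 6.66 and 14.9 RPKM against 21.3 to 53.97 RPKM (median 30.7), with differences of -2.43 ± 0.38 and -2.40 ± 0.52. Psat1, an enzyme of serine synthesis, was at 2.12, 4.13 and 4.53 RPKM in endothelial cells, at 11.2 ± 4.74 RPKM in Il33+ and at 47.3 ± 5.04 RPKM in Il33- WAT-MSC. The collagen uptake receptor Mrc2 (-2.39 ± 0.54), the exchanger Slc24a3 (-2.39 ± 0.35), the matrix protein Vit (-2.29 ± 0.56) and the activin inhibitor Fst (-2.21 ± 0.47) were next. Ccl11, the eosinophil chemokine eotaxin, was at 87.2, 148 and 175 RPKM against 297 to 1212 RPKM (median 611), a difference of -2.20 ± 0.31 (adjusted p = 0.000781). Each of these 10 genes except Peg3os had its lowest endothelial value in replicate 1. Without that library the differences of Lrrc17, Mrc2, Srpx and Vit were -1.48, -1.48, -1.59 and -1.39. The call of Vit was lost without endothelial replicate 2, Il33+ WAT-MSC replicate 2 or 3 or Il33- WAT-MSC replicate 2 or 3 (adjusted p = 0.0523 to 0.0653).

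Stromal RNA was abundant in the endothelial libraries. All 32 stromal markers were measured, and none was at 0 in any endothelial library. They summed to 4579, 5081 and 9092 RPKM, against 11084 to 16851 RPKM in the stromal libraries. The endothelial identity genes summed to 1550, 1255 and 1391 RPKM, against 30.2 to 124 RPKM. Dcn (decorin, a collagen-binding proteoglycan) was at 936, 916 and 1472 RPKM against 2035 to 3296 RPKM (median 2759), and Col1a1 (type I collagen) at 147, 315 and 730.1 RPKM against 557 to 1578 RPKM (median 608). As a percent of the stromal mean, the median stromal marker stood at 31.8, 35.5 and 72.8% in endothelial replicates 1, 2 and 3, an average of 46.7 ± 22.7% (SD, n = 3 libraries). After median-ratio scaling these medians were 51.8, 38.6 and 64.7%. Over all tested genes, without that scaling, the median gene stood at 54.3, 86.0 and 105% of its stromal mean in the same libraries. The typical gene thus also rose from replicate 1 to 3. Of the 32 markers, 17 were called lower, with a median log2 difference of -1.18, and none was higher, either by limma or at an unadjusted p below 0.05. Without endothelial replicate 1, 11 were called lower. The call of Dcn was lost without endothelial replicate 1 or 2 (adjusted p = 0.0631 to 0.0763). In the reverse direction, the median endothelial identity gene stood at 0.323 to 2.38% of its endothelial mean in the 6 stromal libraries.

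The share of the stromal level differed between genes. Of the 297 genes called lower, 212 had a mean endothelial level of 25 to 50% of the stromal mean, 52 of 10 to 25%, 26 of 50 to 75% and 7 below 10%. Among stromal markers that were not called, the matrix gene Mfap4 was at 150.1, 59.5 and 255 RPKM against 65.7 to 292 RPKM (median 118). Pi16, a marker of adventitial stromal cells, was at 19.3, 32.9 and 76.01 RPKM in endothelial cells, at 75.8 ± 13.2 RPKM in Il33+ and at 12.4 ± 2.19 RPKM in Il33- WAT-MSC. Il33, chosen after its values were seen and the gene of the reporter that divided the stroma, was at 15.1, 15.98 and 21.4 RPKM in endothelial cells, at 53.01 ± 22.1 RPKM in Il33+ and at 5.19 ± 1.37 RPKM in Il33- WAT-MSC. Stromal cells in the sort and stromal genes expressed by endothelial cells cannot be told apart here, and the part of stromal RNA in the results above was not tested.

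**Figure D4:**
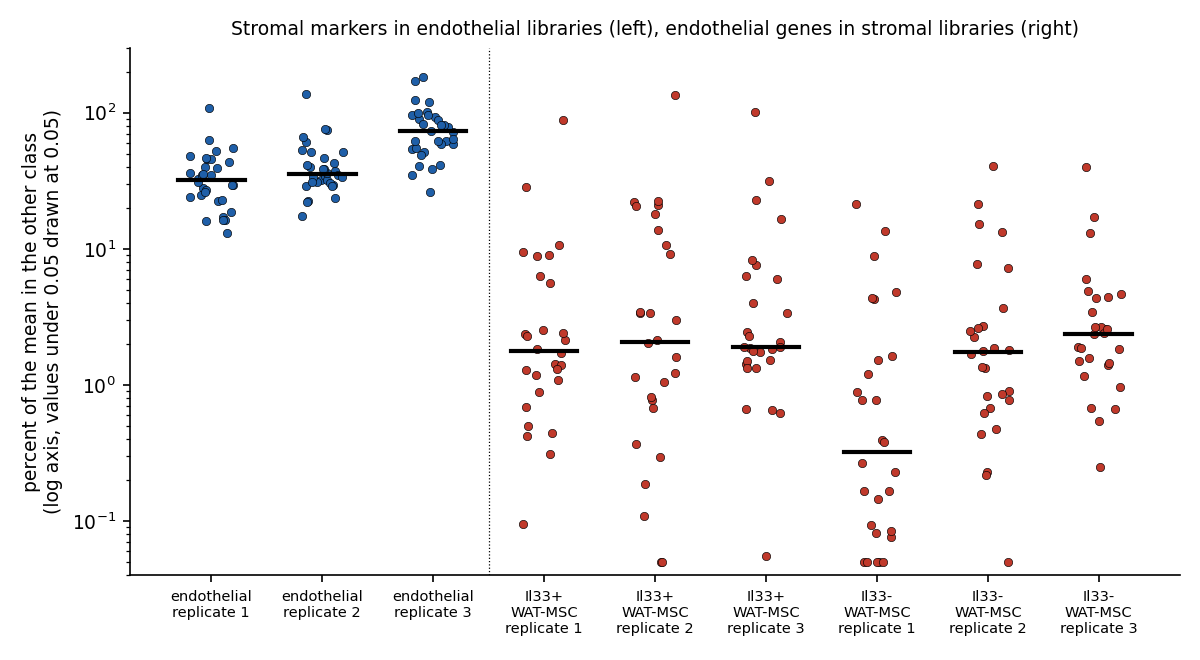
Left, each of 32 stromal markers in the 3 endothelial libraries as a percent of its stromal mean; right, each of 28 endothelial identity genes in the 6 stromal libraries as a percent of its endothelial mean (log axis; black bars, medians). Stromal medians are 31.8, 35.5 and 72.8%, and endothelial medians are at most 2.38%.

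Markers of mural cells, which surround the endothelium, were high in every endothelial library. Of 16 pericyte and smooth muscle markers, 13 were measured, 9 were called higher, and their sum was 315, 313 and 251 RPKM against 29.5 to 58.4 RPKM in stroma. None was lower, either by limma or at an unadjusted p below 0.05. Rgs5, the pericyte marker, was at 209, 215 and 141 RPKM against 1.8 to 16.4 RPKM (median 7.56), a difference of 4.56 ± 0.34 (adjusted p = 1.47e-05). Acta2 (smooth muscle actin) was at 17.96, 17.9 and 13.9 RPKM against 0.18 to 1.53 RPKM (median 0.895) and Myh11 (smooth muscle myosin) at 21.8, 15.7 and 10.8 RPKM against 0.05 to 0.81 RPKM (median 0.475), with differences of 3.25 ± 0.35 and 3.52 ± 0.34. Mcam (CD146), shared by pericytes and endothelium, was at 11.3, 9.16 and 11.5 RPKM against 0.14 to 1.02 RPKM (median 0.51). Abcc9, a channel subunit of pericytes, was at 14.5, 14.2 and 17.4 RPKM in endothelial cells, at 19.1 ± 1.54 RPKM in Il33+ and at 1.59 ± 0.259 RPKM in Il33- WAT-MSC, and its difference from the Il33+ population alone was -0.30. The part of mural RNA in the results above, such as those for Gucy1a3 and Notch3, was not tested.

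Mesothelial and blood markers were uneven across the endothelial libraries. The 13 measured mesothelial markers summed to 74.9, 297 and 344 RPKM against 42.7 to 214 RPKM in stroma, and 4 were called higher. Upk3b, a marker of mesothelium, was at 17.2, 43.1 and 64.2 RPKM against 0 to 20.8 RPKM (median 5.29), a difference of 2.64 ± 0.55 (adjusted p = 0.00993). The 9 measured erythroid and platelet markers summed to 20.1, 250.2 and 415 RPKM against 0.86 to 73.4 RPKM, with Hba-a1 (haemoglobin alpha) at 8.5, 72.4 and 109.7 RPKM. With the replicate number as a block, Hba-a1 was called (adjusted p = 0.000346). Of these 9 and of the 12 macrophage and dendritic cell markers none was called in the main limma fit, and 2 of each were higher at an unadjusted p below 0.05. Without endothelial replicate 1, 5 and 3 were called higher. With library weights 7 and 10 were called higher. Of 16 lymphoid markers 1 was measured, Rac2, at 0.75, 1.16 and 1.54 RPKM against 0.08 to 0.48 RPKM (median 0.19). Scgb1a1, a secretory gene of lung airway cells and the most abundant of the 16 lung epithelial markers, was at 75.4, 61.4 and 104 RPKM against 56.1 to 134 RPKM (median 74.8), with a 95% interval of the difference from -0.64 to 0.60. None of the lung epithelial markers was called by limma or passed an unadjusted p of 0.05, and 1 was called with library weights. The part of these cell types in the results above was not tested.

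**Figure D5:**
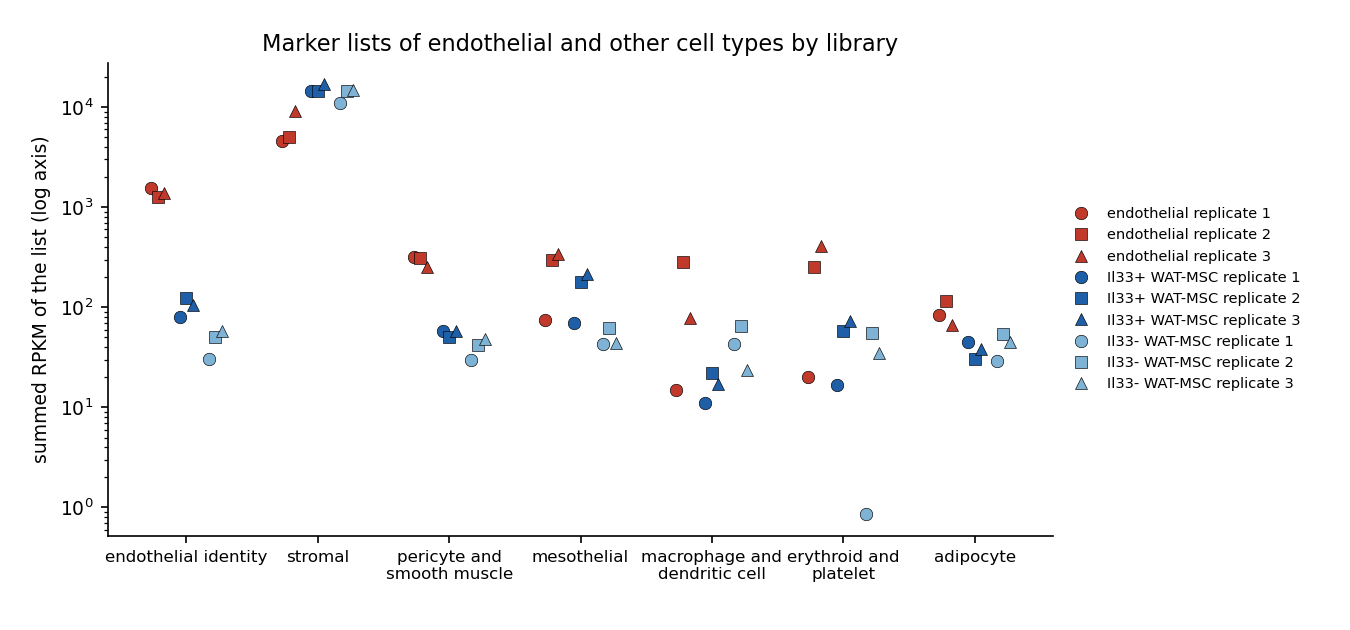
Summed RPKM (log axis) of 7 marker lists in each of the 9 libraries (red, endothelial; blue, stromal; the symbol gives the replicate). Endothelial and mural sums are above every stromal library in all 3 endothelial libraries, and mesothelial, macrophage and erythroid sums are lowest among endothelial libraries in replicate 1.

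The genes called higher spanned a wide range of levels. The highest mean endothelial RPKM belonged to Timp3, an inhibitor of matrix proteases, at 464, 265 and 273 RPKM against 86.7 to 212 RPKM (median 145). It was followed by Fabp4, Cav1, Cd74 and Msn, which links membrane proteins to actin and was at 276, 179 and 207 RPKM against 111 to 145 RPKM (median 122). The lowest belonged to Tbc1d30 (1.12, 1.84 and 1.12 RPKM), Krt80 (1.73, 1.97 and 1.33 RPKM), Fgfr3 (1.71, 1.34 and 2.21 RPKM), Atp2a3 (1.99, 2.15 and 1.95 RPKM) and Sh3bgrl2 (1.87, 2.87 and 1.37 RPKM). Each was below 1 RPKM in every stromal library, so the filter fixed its direction and lack of overlap. The most uneven after Tal1 were Ccl21b, Ccl3, Pcp4l1 and Npnt. Ccl3, a chemokine of myeloid cells, was at 3.6, 24.2 and 2.43 RPKM, highest in the library with the highest macrophage sum. Npnt, a basement membrane ligand of integrins, was at 13.2, 1.85 and 1.25 RPKM, and Pcp4l1 at 1.51, 8.57 and 16.5 RPKM, so these were highest in different libraries. Without endothelial replicate 2 the difference of Ccl3 was 1.75, and without endothelial replicate 1 that of Npnt was 1.09. The call of Npnt was lost in 6 of the 9 fits without 1 library (adjusted p = 0.0605 to 0.0849), and held without endothelial replicate 1, 2 or 3. The call of Msn was lost in 7 of the 9 fits without 1 library (adjusted p = 0.0635 to 0.107), and held without endothelial replicate 2 or 3. The call of Krt80 was lost in 8 of the 9 fits without 1 library (adjusted p = 0.0501 to 0.135), and held without Il33+ WAT-MSC replicate 3. The call of Fgfr3 was lost without Il33+ WAT-MSC replicate 1 or 3 or Il33- WAT-MSC replicate 3 (adjusted p = 0.0546 to 0.0561). The call of Tbc1d30 was lost without endothelial replicate 2 (adjusted p = 0.0593). Gm16548, a gene model with no assigned name, was among the 10 largest differences (5.12 ± 0.43), at 88.04, 31.9 and 19.9 RPKM against 0 to 0.34 RPKM (median 0.11).

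Genes that respond to tissue dissociation were present in both classes. All 24 were measured, with a median log2 difference of -0.30, and 2 were called higher, Egr3 (1.66 ± 0.28) and Ier3 (1.27 ± 0.28), and 2 lower, Jund (-0.81 ± 0.21) and Socs3 (-0.90 ± 0.25). The call of Jund was lost in 7 of the 9 fits without 1 library (adjusted p = 0.0542 to 0.0941), and held without endothelial replicate 3 or Il33+ WAT-MSC replicate 2. The call of Socs3 was lost in 7 of the 9 fits without 1 library (adjusted p = 0.086 to 0.152), and held without endothelial replicate 3 or Il33- WAT-MSC replicate 1. The call of Ier3 was lost without endothelial replicate 2 (adjusted p = 0.0557). Of 18 cell cycle genes 4 were measured. None of them was called by limma, and 2 were higher at an unadjusted p below 0.05. Mki67 was at 5.02, 2.02 and 3.6 RPKM against 0.33 to 2.34 RPKM (median 0.65) (1.21 ± 0.40, adjusted p = 0.0921).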

How the data were processed

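RNA had been amplified with the Ovation V2 kit and sequenced on an Illumina HiSeq. The authors deposited RPKM per transcript and no read counts, so no count test was made. The submitters' processing notes name TopHat2, Partek and the mm10 build, without versions, and how reads shared by transcripts were divided is not given in the sources used here. Every value column was mapped to a sample by its name, and no pair of libraries held identical values.

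RPKM was summed per gene symbol (1786 of 10222 symbols had more than 1 transcript) and log2(RPKM + 1) was fitted in limma 3.58.1 (R 4.3.3) with 3 group means and a mean-variance trend. Genes needed at least 1 RPKM in at least 3 of 9 libraries, and p-values were adjusted by Benjamini-Hochberg over all 9015 genes tested, with a threshold of 0.05. The fit was tested on simulated data with 200 changed genes. Replicates were described as independent experiments. The libraries held 43825859 to 60773158 alignments, which limits the precision of genes with low RPKM.

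The gene lists, and the comparison itself, were chosen with earlier results of these data known. Members of each list were named by role and size of difference, 1 to 10 per list. Also named were the 10 called genes with the largest difference in each direction among those without overlap, the 5 called higher that were most uneven among endothelial libraries, and the 5 with the highest and 5 with the lowest endothelial mean. Cd24a, Cd34, Ly6a, Gm1987 and Il33 were added after their values were seen. List counts without endothelial replicate 1 and with median-ratio scaling, quantile normalization or library weights were alternatives chosen after seeing the data.

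The other alternatives were a 2-group fit, the replicate number or the lane as a factor, all 15 libraries in 1 fit, each stromal population alone as reference, a pseudocount of 0.1, no filter, a filter at 5 RPKM, the most abundant transcript in place of the sum, and each library left out. Gene positions are from the GENCODE annotation of GRCm38, the same assembly as mm10, and promoters are from RefSeq (GRCm38.p6). The 6 lung libraries entered only the fit of all 15. Figures were drawn with matplotlib 3.10.9 in Python 3.11.15.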

Additional observations from a re-analysis of the deposited data

Results flagged for a closer look

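Rac2, a GTPase of blood cells and the only lymphoid marker measured, was at 0.48 RPKM in Il33- WAT-MSC replicate 3 and at 0.08 to 0.20 RPKM in the other 5 stromal libraries. Its gap to the nearest library exceeded Dixon's critical value for 6 libraries. It was the 1 library found apart among the summed levels of 25 gene lists, and chance alone marks about 1 group in 20 in this way.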

How the results depend on the processing

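The comparison was refitted under 22 alternatives. Estimated library weights gave 2407 called genes (990 higher and 1417 lower), against 788 (491 and 297). All 15 libraries in 1 fit gave 556 lower and quantile normalization 466. Il33+ WAT-MSC alone as the reference gave 324 called (277 and 47), and Il33- WAT-MSC alone gave 497, with 139 lower. Leaving out 1 library gave 551 to 1152 called, 391 to 562 higher and 151 to 692 lower. The counts under the other alternatives were within 1.5 times those above, and the causes of these changes were not tested. The stromal RNA level of 46.7% ran from 33.7 to 54.1% without 1 library and from 44.7 to 62.1% under its other alternatives.

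Of the 126 named genes called higher, 122 kept their direction under every alternative that tested them and 83 also kept the call. All 30 called lower kept their direction and 4 also kept the call. With Il33+ WAT-MSC alone as the reference, 25 of these 30 lost the call. Of the 29 not called, 17 were called under at least 1 alternative and 12 turned. Against Il33+ WAT-MSC alone the log2 differences turned to -0.30 for Abcc9, -0.14 for Tspan18, -0.22 for Ackr1, -0.082 for Esm1, -1.49 for Il33, 0.15 for Klf2, -0.53 for Mfap4 and -1.02 for Pi16. Against Il33- WAT-MSC alone they turned to 0.18 for Heg1, 0.17 for Scgb1a1 and 0.26 for Thbd. With the most abundant transcript they turned to -1.47 for Cxcl12, -0.26 for Tek and -0.45 for Acvrl1, and with library weights to -0.014 for Acvrl1 and -0.78 for Mfap4. Median-ratio scaling gave 0.12 for Heg1 and 0.20 for Scgb1a1, and quantile normalization gave 0.54 for Heg1, 0.19 for Scgb1a1, 0.072 for Ly6a and 0.23 for Thbd. Without 1 library the ranges crossed 0 for Il33 (-0.10 to 0.21), Laptm5 (-0.013 to 2.17), Ly6a (-0.85 to 0.29), Mfap4 (-0.36 to 0.68), Pi16 (-0.28 to 0.69) and Scgb1a1 (-0.22 to 0.16).

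The replicate numbers of the labels were checked for pairing. Deviations from the group means correlated at -0.06 to 0.15 between libraries of the same number (3 of 9 pairs above 0.1) and at -0.15 to 0.10 between libraries of different numbers (medians 0.08 and -0.04). The 3 were the pairs among the replicate 3 libraries, which were also the 3 sequenced in lane 2, so number and lane cannot be told apart for them. These correlations cannot decide whether the numbers pair the libraries. The main fit held no block, because the labels do not say that a number marks a shared mouse or day. Adding the replicate number to the fit as a block called 958 genes, 530 higher and 428 lower. Of the named genes it added calls of Col1a1 (adjusted p = 0.0435), Gpihbp1 (0.0315), H2-Aa (0.00163), H2-K1 (0.0347), Hba-a1 (0.000346) and Vegfa (0.0251), and it ended that of Krt80 (0.0642). The lane as a factor called 829, 489 higher and 340 lower, adding Col1a1 (adjusted p = 0.046) and Vegfa (0.0405) and ending Krt80 (0.0599). The median difference over all genes was -0.18, moved to -0.02 with median-ratio scaling and to 0.01 without endothelial replicate 1. The 3 endothelial libraries limit the precision of every difference.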

Other observations

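The genes in this paragraph were chosen after their values were seen. Members of the Gimap family, small GTPases known mainly from lymphocytes, were called higher in endothelial cells. Gimap4 was at 69.3, 12.8 and 18.6 RPKM against 0.03 to 2.24 RPKM (median 0.255) in stroma, a log2 difference of 4.21 ± 0.52 (adjusted p = 0.000293). Gimap6 was at 25.3, 11.9 and 24.2 RPKM against 0.02 to 0.73 RPKM (median 0.285) and Gimap5 at 15.1, 7.88 and 10.1 RPKM against 0 to 0.56 RPKM (median 0.055). Rac2, the only lymphoid marker measured, was at 0.75, 1.16 and 1.54 RPKM in the same libraries. Gvin1, an interferon-induced GTPase, was at 28.3, 33.9 and 26.4 RPKM against 0.07 to 4.21 RPKM (median 1.26), and its near-identical copy Gm4070 had almost the same values, so the split between them is uncertain.

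The genes in this paragraph were likewise chosen after their values were seen. Kitl (stem cell factor) was at 13.2, 6.17 and 7.12 RPKM against 0.39 to 2.06 RPKM (median 1.11), a difference of 2.13 ± 0.37 (adjusted p = 0.00319). Csf2rb, the shared receptor chain of IL-3, IL-5 and GM-CSF, was at 8.68, 20.9 and 12.2 RPKM against 0.05 to 0.63 RPKM (median 0.33), a difference of 3.38 ± 0.34 (adjusted p = 7.82e-05), and myeloid cells express it too. Il4ra, the receptor chain of IL-4 and IL-13, was at 11, 11.8 and 10.3 RPKM against 2.42 to 5.8 RPKM (median 4.04), a difference of 1.26 ± 0.30 (adjusted p = 0.02). The call of Il4ra was lost without endothelial replicate 2, Il33+ WAT-MSC replicate 1 or 3 or Il33- WAT-MSC replicate 3 (adjusted p = 0.0519 to 0.0833). Lepr, the leptin receptor, was at 14.97, 10.3 and 11.4 RPKM in endothelial cells, at 5.87 ± 0.973 RPKM in Il33+ and at 0.863 ± 0.670 RPKM in Il33- WAT-MSC. The growth factor Igf2 was at 63.6, 23.9 and 26.4 RPKM against 0.07 to 7.69 RPKM (median 1.56). The chemokine Cxcl14 was called lower, at 0.03, 1.41 and 8.78 RPKM against 8.3 to 54.98 RPKM (median 20.3), with an overlap between the classes. The drug efflux pump Abcb1a, a gene of barrier endothelium, was at 2.54, 7.12 and 6.99 RPKM against 0.02 to 0.35 RPKM (median 0.18), a difference of 2.39 ± 0.34.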
